A study of Homo sapiens with 8 samples.

Results

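The outer 5 Mb of the short arm of human chromosome 16, within band 16p13.3, was examined in peak lists of RNA pulled down with an antibody against RBPMS. Members were all listed peaks on chromosome 16 that ended within the first 5 Mb of build hg19, on either strand. They numbered 2396 of 194003 listed peaks, with 552, 1267, 247 and 330 in libraries 1, 2, 3 and 4. Within this window, called the 16p end here, a run of peaks assigned to LMF1 (2534 bases of chromosome 16 from 907408, minus strand) and a region assigned to PAM16 (275 bases from 4394383, minus strand) were described in detail. The window and both loci were chosen by the deposited log2 fold and −log10 p of their peaks, so their folds and enriched counts are descriptions without a test.

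All 8 libraries were made from HUES6, a widely used human embryonic stem cell line, labelled wild type (WT) and control and grown in FTDA medium. Dishes of some 20M cells were crosslinked with UV light at 400 mJ/cm2, and paired ends of 75 nt were sequenced. In 4 libraries, labelled eCLIP, crosslinked RNA was immunoprecipitated with the RBPMS antibody, and the 4 input libraries had none. Each immunoprecipitation has 1 list of peaks that gives a log2 fold and a −log10 p against input, and the inputs enter only through these values. All libraries came from 1 cell line, and no library of cells without RBPMS was analysed here.

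RBPMS is an RNA-binding protein with a single RNA recognition motif that forms dimers and binds RNA with paired CAC trinucleotides. It is known as a regulator of alternative splicing in smooth muscle cells. In eCLIP, UV light joins protein to the RNA it touches, the RNA is trimmed, and fragments pulled down with the protein are sequenced. Input RNA shows what abundant transcripts yield without the antibody, and a peak's fold over input sets its reads against that. LMF1 encodes lipase maturation factor 1, a membrane protein of the endoplasmic reticulum needed for the folding of lipoprotein lipase. PAM16 encodes a subunit of the motor that pulls proteins into the mitochondrial matrix. In the RefSeq annotation of GRCh38.p14, used for names and neighbours only, both genes lie on the minus strand. LMF1 is overlapped there by the plus-strand gene LMF1-AS1 and by CEROX1, and PAM16 by the minus-strand read-through gene CORO7-PAM16, with GLIS2 and CORO7 as neighbours. The gene names were not checked against hg19, and whether the peaks lie in exons, introns or UTRs was not determined. No sequence is shown because no genome of the build of the lists was used here.

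A peak was called enriched when its log2 fold was at least 3, which is 8-fold over input, and its −log10 p was at least 3. The immunoprecipitation reads of libraries 3 and 4 did not differ beyond sampling noise over the 367 peaks compared, with a chi-square per degree of freedom of 1.05 (p = 0.246, chi-square test). The other 5 pairs gave 6.14 to 12.4. Libraries 3 and 4 were therefore counted as 1 sample, and each mean ± SD is over n = 3 samples, which are library 1, library 2 and the mean of libraries 3 and 4. The labels name no separate cultures, and the spread between libraries may be technical. The read numbers behind a peak were worked out from its fold and p, and the depth of input over immunoprecipitation was 3.18, 1.04, 2.12 and 1.46 in libraries 1 to 4.

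The 16p end held 365 enriched peaks, with 96, 134, 59 and 76 in libraries 1 to 4. In library 1, 17.4% of the listed peaks of the window were enriched (95% Wilson interval 14.5 to 20.8%), beside 15.9% of all peaks listed in that library. In library 2 the share was 10.6% (9.0 to 12.4%), beside 5.38% of all its peaks. Library 3 had a share of 23.9% (18.99 to 29.6%) beside 12.6%, and library 4 of 23.0% (18.8 to 27.9%) beside 12.7%. The window thus lay above its library's background in all 4 libraries, with the smallest gap in library 1, where the interval includes the background. These intervals cover counting error only. When peaks of 1 library at most 100 bases apart were counted once, the shares of the window fell to 11.5%, 5.29%, 17.5% and 12.3%, beside 13.4%, 3.46%, 10.3% and 9.01% of the whole lists, and library 1 lay below its background.

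Both named loci held a large part of that excess. The LMF1 run and the cluster around the PAM16 region together had 28, 32, 20 and 26 listed peaks in libraries 1 to 4, and every one of them was enriched. Without them the enriched share of the window was 12.98% in library 1 (10.4 to 16.1%), below the 15.9% of the whole list. In libraries 2, 3 and 4 it was 8.26% (6.85 to 9.93%), 17.2% (12.8 to 22.6%) and 16.4% (12.7 to 21.0%), still above the whole lists. Over samples the share was 17.1 ± 6.44% with both loci and 12.7 ± 4.29% without them (SD, n = 3). The first 5 Mb of chromosome 19, another gene-rich chromosome end, had enriched shares of 23.2%, 6.98%, 22.0% and 20.2%. Enriched peaks made up 21.1%, 7.75%, 18.0% and 19.3% of those listed on the rest of chromosome 16. With both named loci the window was above both in libraries 2, 3 and 4 and below both in library 1. Without the loci its shares of 12.98%, 17.2% and 16.4% in libraries 1, 3 and 4 were below both. Only its 8.26% in library 2 stayed above both, and these differences were not tested. Nothing was left out of the parts compared or of the rest of the whole lists. Leaving out loci chosen for their folds thus lowers the window by construction, and these shares do not show that it is poorer than those parts.

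**Figure D1:**
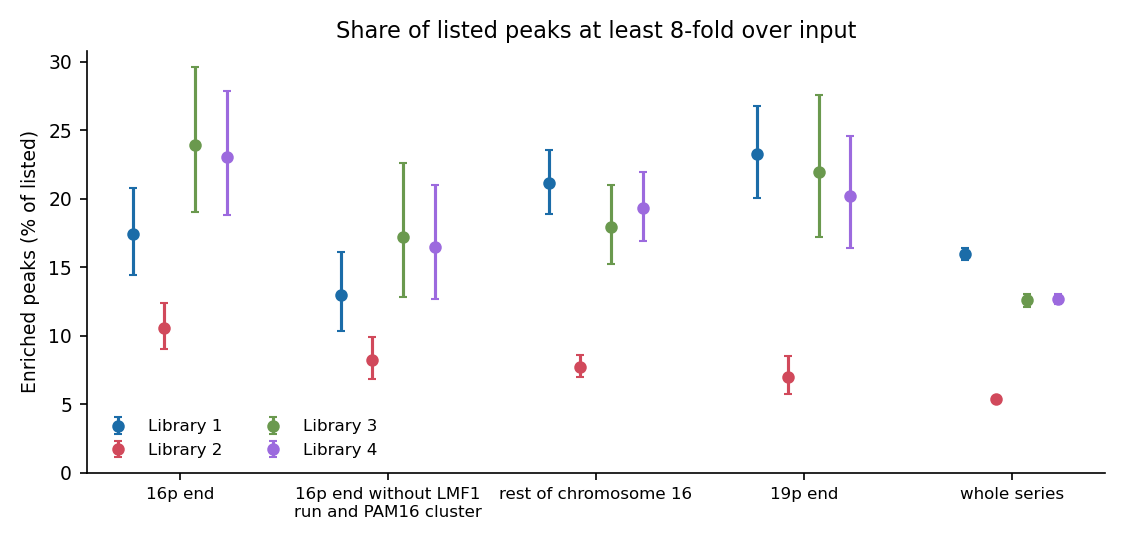
Share of listed peaks that were enriched, in percent, for the 16p end with and without its 2 named loci, the rest of chromosome 16, the first 5 Mb of chromosome 19 and all peaks, by library. Points are shares and bars 95% Wilson intervals. Leaving out the LMF1 run and the PAM16 cluster lowers the share in every library, from 17.4% to 12.98% in library 1, and library 2 has the lowest share in every set. The other sets are shown with all their peaks.

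Most listed peaks of the window were weak. Of the 2396, 1407 had a log2 fold between 0 and 3 with a −log10 p below 3, and 205 reached a log2 fold of 3 without the p. Another 62 had a −log10 p of at least 3 at a lower fold. The remaining 357 had a fold below 0, all with a deposited −log10 p of 0, so depletion against input was not tested in these lists. Library 2, with the longest list, held 289 of the 357.

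The enriched peaks of the 4 libraries merged into 127 regions in the window, each formed by peaks on 1 strand with 1 or more bases in common. Enrichment in all 4 libraries was seen in 27 of them, in 3 libraries in 16, in 2 libraries in another 16 and in 1 library in 68. A region enriched in at least 3 libraries was called reproducible, and 43 regions were, which is 33.9% of the 127 beside 22.7% of the 7472 regions of the whole series. Libraries 3 and 4 count separately here, so the 4 regions that lack library 1 and the 2 that lack library 2 rest on 2 samples. With libraries 3 and 4 as 1 sample, and at least 2 of 3 samples asked for, 56 regions were reproducible and the LMF1 run had 11. The first 5 Mb of chromosome 19 had 35 reproducible regions of 148 (23.6%), and the rest of chromosome 16 had 89 of 362 (24.6%). The LMF1 run and the PAM16 cluster, chosen for their folds, held 10 and 4 of the 43, and the share without them was not worked out. Reproducible regions of the window had a median width of 148 bases, and 18 lay on the plus and 25 on the minus strand. No region overlapped one on the other strand.

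They were unevenly spread. By successive megabases from the chromosome end, 22, 5, 3, 5 and 8 reproducible regions were found. The 1st megabase, which holds the LMF1 run, and the 5th, which holds PAM16, together had 30 of the 43. In the 5th megabase 28.7%, 24.9%, 36.6% and 50.0% of listed peaks were enriched in libraries 1 to 4. The PAM16 cluster, chosen for its folds, held 15, 14, 9 and 13 of the 25, 47, 15 and 22 enriched peaks behind these shares. It also held 4 of the 8 reproducible regions there, and the LMF1 run 10 of the 22 in the 1st megabase. In the 3rd megabase the corresponding shares were 3.19%, 1.89%, 12.96% and 6.85%, the lowest in libraries 1, 2 and 4 and above only the 2nd megabase in library 3.

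Reproducible regions on 1 strand with gaps of at most 1000 bases were joined into runs. The window had 18 runs, 9 of them with at least 2 regions and 4 with at least 4, and these 4 runs held 23 of the 43 regions. They were the LMF1 run with 10 regions, a plus-strand run at chr16:554014-554893 with 5, and the PAM16 cluster and a plus-strand run at chr16:512581-513271 with 4 each.

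The LMF1 run spanned 2534 bases on the minus strand. Only 2 runs of the whole series, of 64 with at least 4 regions, had more than its 10 regions. Of these, 6 were enriched in all 4 libraries and 4 in 3 libraries. Libraries 1 to 4 listed 13, 18, 11 and 13 peaks there, and all 55 were enriched. No peak was listed on the plus strand of this stretch in any library. Enriched peaks covered 773, 1254, 689 and 786 bases. In all 4 libraries 431 bases (17.0% of the stretch) were covered, 655 in at least 3, and 1074 in none. The run was therefore a row of separate short peaks, some shared by all libraries and some not, with uncovered bases between them. Gaps between neighbouring regions ran up to 398 bases, and 2 gaps had no base, so that joining peaks that touch gave 8 regions instead of 10.

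**Figure D2:**
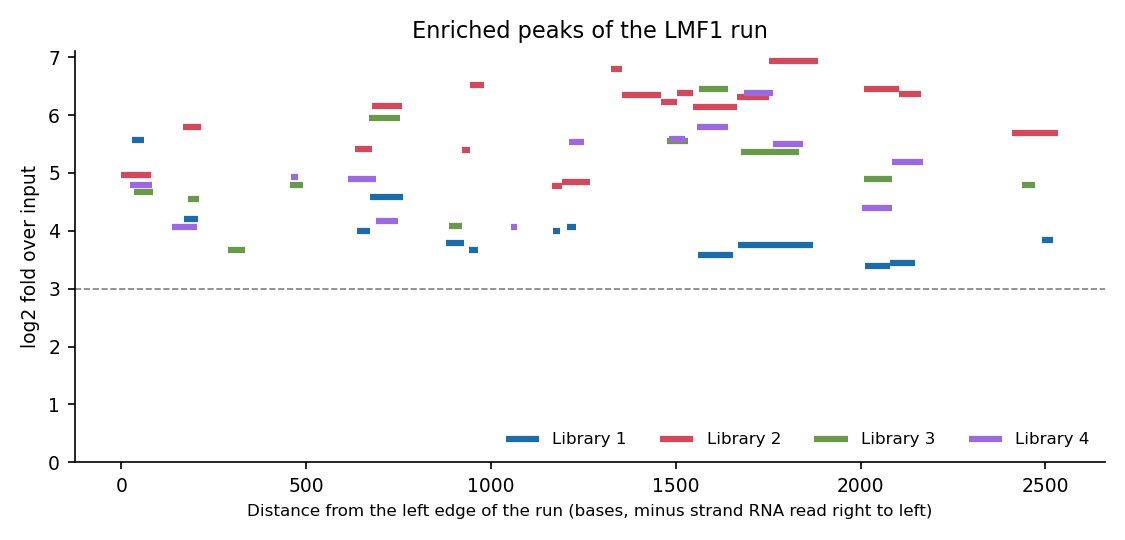
Enriched peaks of the LMF1 run by library. The horizontal axis is the distance in bases from the left edge of the run (transcription on the minus strand goes from right to left), the vertical axis the log2 fold over input; each bar is 1 peak from start to end and the dashed line is the threshold of 3. Peaks of all 4 libraries overlap on 431 bases, and some stretches have peaks of 1 library only; library 2 reaches 6.93, and most peaks of library 1 lie near 4.

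Within the run, folds were lowest in library 1 and highest in library 2. The median log2 fold over the peaks was 3.84, 6.19, 4.79 and 4.94 in libraries 1 to 4. The read numbers behind these folds differed as well. In library 1 all 13 peaks had settled read numbers, with a median of 42 immunoprecipitation reads (15 to 179) against a median of 9 input reads (1 to 42). In library 2 the 7 peaks with settled numbers had 105 to 469 immunoprecipitation reads against 3 to 6 input reads. Settled peaks of library 3 had 11 to 58 immunoprecipitation reads and those of library 4 had 19 to 41, both against 1 to 3 input reads. Library 1 alone had more than 6 input reads in any peak, and an input of 0 cannot be told from an input of 1 in these lists.

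The region chr16:909074-909291 had the highest mean of the 6 regions of the run that were enriched in all 4 libraries. Its log2 fold was 3.76, 6.93, 5.36 and 6.38 in libraries 1 to 4 (5.52 ± 1.62, SD, n = 3). Library 1 stood below the other 3 here. Its peak from 909077 to 909279 rested on 179 immunoprecipitation and 42 input reads. In library 2 the peak from 909159 to 909291 rested on 469 against 4 reads, and in library 3 the peak from 909084 to 909241 on 58 against 3. The highest peak of library 4, from 909093 to 909170, had a ratio of 57 to 1. Library 1 thus had more immunoprecipitation reads at this place than library 3, and a lower fold.

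The neighbour chr16:908955-909073 had log2 folds of 3.58, 6.13, 6.44 and 5.79, again lowest in library 1. At chr16:909412-909576 the folds were 3.45, 6.45, 4.89 and 5.19. The region chr16:908021-908168 had 4.58, 6.15, 5.94 and 4.90, a narrower range. At the left end the order changed: chr16:907408-907491 had 5.57 in library 1 and 4.97, 4.67 and 4.79 in libraries 2 to 4. That highest value of library 1 rested on 15 immunoprecipitation reads and 1 input read, its smallest numbers in the run. The region chr16:907546-907622 had 4.21, 5.80, 4.54 and 4.07.

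The other 4 regions of the run each lacked 1 library. Library 4 had no listed peak at chr16:908285-908387, where libraries 1 to 3 had log2 folds of 3.79, 6.52 and 4.09. It had none at the 124 bases from 909818 either, where they had 3.84, 5.70 and 4.79. Library 3 listed none at chr16:908599-908675, where libraries 1, 2 and 4 had 4.06, 4.84 and 5.54. Library 1 listed none at chr16:908867-908954, where libraries 2 to 4 had 6.38, 5.54 and 5.59. The mean there, 5.97, was the highest of the run but is over only 2 samples. In none of these 4 cases did the lacking library hold a peak that failed a threshold; the peak was not in its list. The mean over the 10 regions was 5.14 with an SD of 0.40 between regions.

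Some enriched peaks fell between the reproducible regions. In library 2, peaks at 908732 to 908761 and 908762 to 908866 had log2 folds of 6.79 and 6.34, the latter from 233 immunoprecipitation and 3 input reads, and no other library listed a peak there. Library 3 had a peak of 3.67 at 907696 to 907741, from 12 against 2 reads. At 907863 to 907898 library 3 had 4.79, and at 907868 to 907885 library 4 had 4.94, from 13 and 21 immunoprecipitation reads with 1 input read each. Coverage of the run was thus widest in library 2, whose peaks also had the most immunoprecipitation reads.

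The PAM16 region, 275 bases on the minus strand, had log2 folds of 5.98, 10.04, 8.29 and 9.004 in libraries 1 to 4 (8.23 ± 2.06, SD, n = 3). Its mean over the 4 libraries, 8.33, was the highest of the 940 regions of the series that were enriched in all 4. These values take the highest peak of a region in each library, and the rank was worked out for them only. With the mean of its enriched peaks instead, the PAM16 region had 7.27 ± 1.38, and with a width-weighted mean 7.11 ± 1.22 (SD, n = 3). Library 1 lay well below the others; the order of the other 3 rests on peaks with at most 4 input reads and is not settled. The libraries listed 9, 8, 4 and 8 peaks in the region, and all 29 were enriched. In all 4 libraries 249 of the 275 bases were covered, 90.5% of the region, and no peak was listed on the plus strand. The stretch was covered almost end to end by abutting peaks. A merged region has no uncovered base by the way it is made, whereas the LMF1 run joins regions across gaps. The PAM16 cluster, joined in the same way as that run, had 70.0% of its 621 bases covered in all 4 libraries and 40 in none. The LMF1 run had 17.0% covered in all 4.

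**Figure D3:**
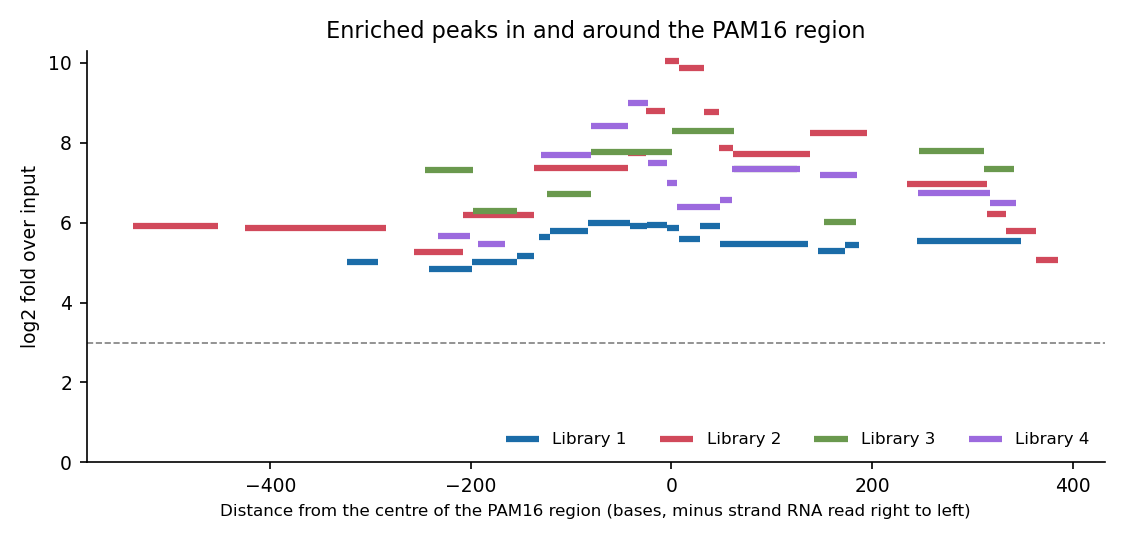
Enriched peaks in and around the PAM16 region by library. The horizontal axis is the distance in bases from the centre of the region (transcription on the minus strand goes from right to left), the vertical axis the log2 fold over input; each bar is 1 peak and the dashed line is the threshold of 3. Inside the region library 1 is flat between 5.48 and 5.98, and library 4 is lowest just right of the centre, at 6.39. The highest peaks of libraries 2, 3 and 4 are at 10.04, 8.29 and 9.004. Those of libraries 2 and 3 overlap, and that of library 4 lies to their left.

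The shape over the region differed between libraries. In library 1 the 9 peaks lay between 5.48 and 5.98, highest at 4394437 to 4394478. Library 2 ran from 7.36 at its left edge to 10.04 at 4394514 to 4394527 and 9.88 at 4394528 to 4394551, and back to 7.72 at its right edge. Library 3 was highest at 4394521 to 4394581, with 8.29, and lowest at 4394396 to 4394439, with 6.71. In library 4 the highest peak, 9.004, lay at 4394477 to 4394496, and the lowest, 6.39, at 4394526 to 4394567. The highest peaks of libraries 2 and 3 overlapped each other, and those of libraries 1 and 4 lay to their left with 2 bases in common.

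Immunoprecipitation reads were many in all libraries, and input reads were few except in library 1. All 9 peaks of library 1 had a −log10 p of 400, the highest value in the lists. Their reads were in ratios such as 1519 to 80, 645 to 37 and 279 to 14, which needs at least 13 input reads in each peak. In library 2 the highest peak had a ratio of 1012 to 1 and its right neighbour of 906 to 1, and the peak from 4394567 to 4394580 rested on 673 against 3 reads. In library 3 the peak from 4394396 to 4394439 rested on 148 against 3 reads, and the highest had a ratio of 148 to 1. In library 4 the peak from 4394440 to 4394476 rested on 703 against 3 reads, and the highest had a ratio of 705 to 2.

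For 16 of the 20 peaks in libraries 2 to 4 the −log10 p stood at the ceiling of 15.7, which occurs only with at most 4 input reads. A fold with so few input reads moves far with each one, so the order among the highest peaks of those libraries is not settled by these values. The −log10 p in turn carries no order at the ceiling: the peak of library 2 with the largest fold has a lower −log10 p than every peak of library 1.

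**Figure D4:**
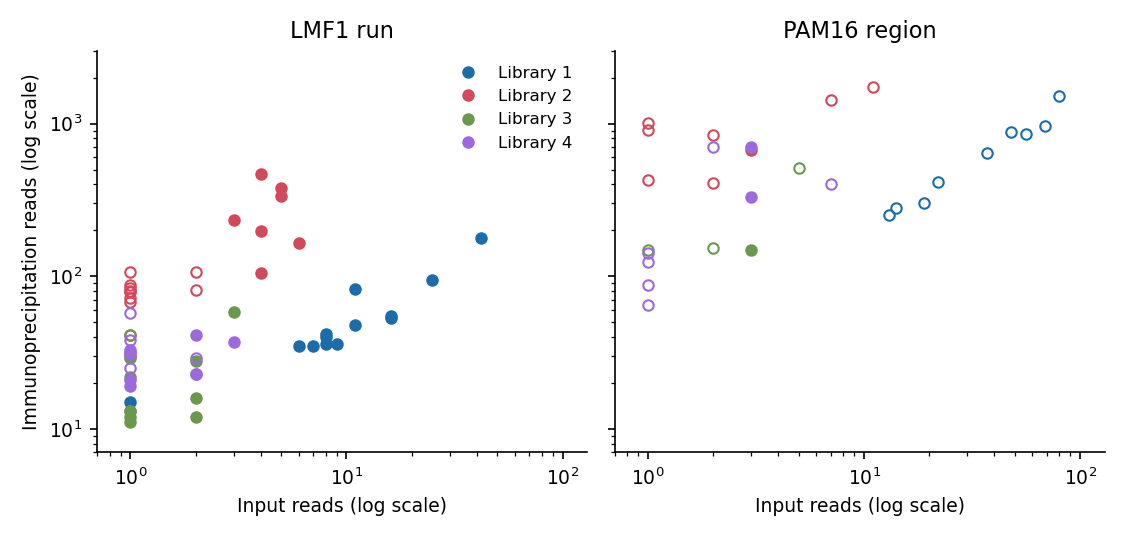
Immunoprecipitation reads against input reads for each enriched peak of the LMF1 run (left) and the PAM16 region (right), both on log scales, by library. Filled points have settled read numbers; open points are the smallest pair that gives the peak's fold and p, a lower bound. Library 1 reaches 42 input reads in the LMF1 run and at least 80 in the PAM16 region, and the other libraries stay at or below 6 and, by these bounds, 11.

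The PAM16 region was the widest of a cluster of 4 regions over 621 bases, from 4394263 to 4394883, all enriched in all 4 libraries. Directly to its left, the 120 bases from 4394263 had log2 folds of 5.16, 6.19, 7.31 and 5.66 (5.95 ± 0.70, SD, n = 3). Directly to its right, chr16:4394658-4394714 had 5.44, 8.24, 6.02 and 7.20 (6.76 ± 1.40). Across a gap of 40 bases, chr16:4394755-4394883 had 5.54, 6.98, 7.80 and 6.73 (6.60 ± 0.92). Library 1 was the lowest in each of these 4 regions, and the highest was library 2 in 2 of them and library 3 in the other 2. Enriched peaks of all 4 libraries covered 435 of the 621 bases. By the summed absolute difference of log2 fold over the 4 libraries, the regions most like the PAM16 region were 2 of this cluster, chr16:4394755-4394883 at 6.27 and chr16:4394658-4394714 at 6.43. The next was the plus-strand region chr16:554014-554261 at 7.95.

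The 27 regions of the window enriched in every library had a median mean log2 fold of 5.33, beside 5.01 over the 940 such regions of the series. A mean of at least 6 was reached by 7 of the 27 and by 149 of the 940. The 7 were the 4 regions of the PAM16 cluster, 2 of the run at 554014 and chr16:4740408-4740791. The last had log2 folds of 4.97, 6.22, 7.43 and 6.15 on the plus strand (5.99 ± 0.93, SD, n = 3). The last enriched peaks inside the 5 Mb bound lay in it or, in library 2, just beside it.

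**Figure D5:**
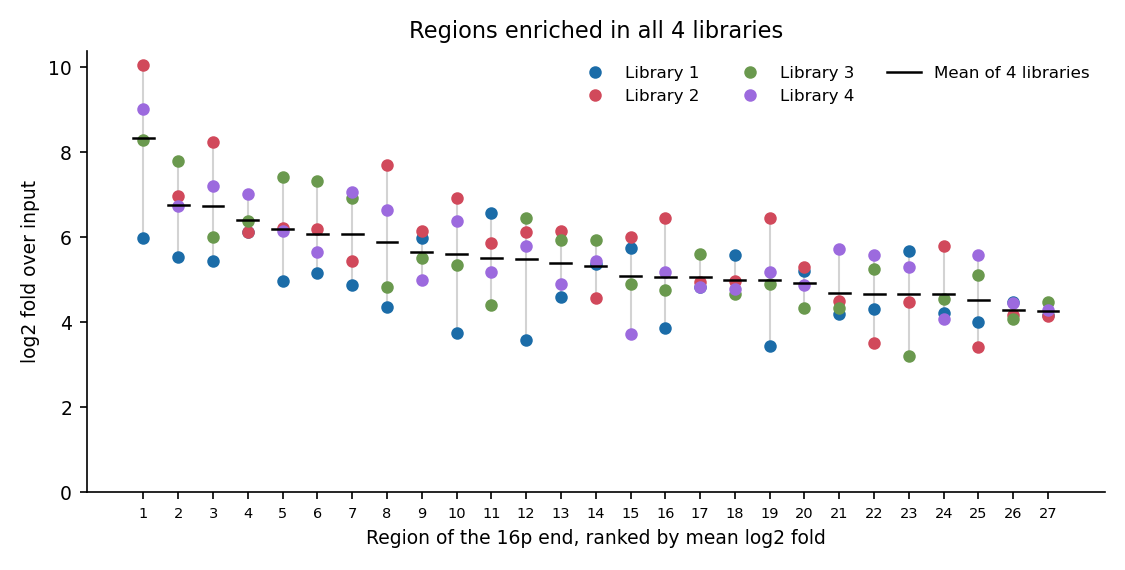
Log2 fold over input in each library for the 27 regions of the 16p end enriched in all 4 libraries, ranked by their mean (black line, mean of the 4 libraries). The PAM16 region is rank 1 with values from 5.98 to 10.04; the spread between libraries is wide at most ranks, with library 1 lowest in 14 of the 27.

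The plus-strand run at chr16:554014-554893 had a mean of 5.60 with an SD of 0.54 between its 5 regions. Its leading region, chr16:554014-554261, had log2 folds of 6.11, 6.12, 6.37 and 7.02 (6.31 ± 0.34, SD, n = 3), with all libraries within 1 log2 unit. Here library 1 was not set apart, and its highest peak had a ratio of 196 to 9 reads. In library 2 the corresponding peak rested on 267 against 4 reads, and in library 4 on 268 against 3. The neighbour chr16:554264-554377 had 5.99, 6.15, 5.51 and 4.99 (5.80 ± 0.48). Libraries split at chr16:554605-554716, with 4.88 and 5.44 in libraries 1 and 2 and 6.92 and 7.07 in libraries 3 and 4. The region chr16:554501-554560 had 5.21, 5.31, 4.33 and 4.86. The right end of the run, chr16:554742-554893, had 4.05, 4.40 and 6.73 in libraries 1, 2 and 4, and no listed peak in library 3. Enriched peaks of all 4 libraries covered 347 of the 880 bases of this run.

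The run at chr16:512581-513271 was of another kind. None of its 4 regions was enriched in all 4 libraries, and none of its 691 bases was covered in all 4. Its mean was 4.52 with an SD of 0.52 between regions. All 12 enriched peaks had settled read numbers, from 8 to 42 immunoprecipitation reads against 1 to 4 input reads. At chr16:512581-512714 the log2 folds were 4.06, 4.09 and 4.54 in libraries 1, 3 and 4, and library 2 listed a peak of 3.52 whose −log10 p of 2.54 fell short of 3. Library 3 was the one lacking in the other 3 regions. There it listed peaks with log2 folds of 3.89, 3.67 and 2.41, each with a −log10 p below 3. This was the only run of at least 4 regions in the window in which each region missed a threshold in 1 library while a peak was still listed there.

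A further region was among the 10 with the highest means over the 4 libraries. At chr16:3192091-3192239, on the plus strand, the log2 folds were 4.37, 7.70, 4.84 and 6.65 (5.94 ± 1.67, SD, n = 3). The highest peak of library 2 had a ratio of 199 to 1 reads, and the peak of library 1 rested on 26 against 4. The libraries differed here by over 3 log2 units.

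Between libraries the folds of the 27 regions varied widely. The range of log2 fold over the 4 libraries had a median of 2.17 and went from 0.34 to 4.06. Library 1 was lowest in 14 of the 27 regions and library 2 highest in 11. As a description across these 27 regions, which are not independent replicates and share their libraries, Pearson's r was 0.23, 0.21 and 0.20 between library 1 and libraries 2, 3 and 4, and Spearman's rho was 0.11, 0.16 and 0.08, so library 1 shared almost no order with the others. Between libraries 2 and 3, 2 and 4, and 3 and 4, r was 0.55, 0.64 and 0.68 and rho 0.53, 0.50 and 0.64. Of the 16 regions enriched in 3 libraries, 7 lacked library 3, 4 lacked library 1, 3 lacked library 4 and 2 lacked library 2. In 8 of the 16 the lacking library listed a peak in the region that missed a threshold, and in the other 8 it listed none.

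The window takes in either strand and peaks of any width, but both loci named in it were set on the minus strand. The enriched peaks compared here passed thresholds on the fold and p that the choice used. Their strand share and width are therefore not independent of that choice, and the tests below lend them no support. Enriched peaks of the window lay on the minus strand in 54.2%, 59.0%, 66.1% and 57.9% of cases in libraries 1 to 4, which is 58.4 ± 3.95% (SD, n = 3). Enriched peaks elsewhere did so in 47.0 ± 0.91%. The difference was 11.4 ± 4.64 percentage points and was positive in 4 of 4 libraries. Without the LMF1 run and the PAM16 cluster, both on the minus strand, the share was 41.2 ± 5.48%, and the difference turned to −5.72 points. Flipping the sign of the difference in the 3 samples, as an exact two-sided permutation test, gave p = 0.25, the smallest it can give, so the design cannot reach 0.05.

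Enriched peaks of the window had a median width of 71.4 ± 4.88 bases (SD, n = 3), beside 81.5 ± 7.05 bases elsewhere. The difference was −10.1 ± 2.70 bases and was negative in 4 of 4 libraries (same exact permutation test, p = 0.25, the smallest it can give). Without both loci the difference was −3.17 ± 4.73 bases (p = 0.5 by that exact test), with values of 0.5, −8.5, 0 and −3 bases in libraries 1 to 4, so its sign was no longer shared.

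Values near the bounds of the selection were as follows. The lowest log2 folds of enriched peaks in the window were 3.02, 3.02, 3.201 and 3.13 in libraries 1 to 4, and the highest below the threshold were 2.95, 2.9994, 2.96 and 2.96. The last enriched peaks inside the 5 Mb bound ended at 4740772, 4740923, 4740791 and 4740783. The next enriched peaks outside it began at 5301049, 5134451, 5397831 and 5300820. No library had an enriched peak within the last 0.2 Mb before the bound, so a small shift of the bound would not alter the enriched peaks.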

How the data were processed

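Peaks were called per library, as 1 list per library with its own coordinates shows; the read aligner, the peak caller and the input behind each list were not given in the sources used here. Coordinates are on hg19, per the submitters' processing notes, and are printed 1-based. Each list gives the authors' deposited −log10 p and the authors' deposited log2 fold of immunoprecipitation over input, which were used only to describe, rank and filter peaks. Total reads per library are unknown.

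Enriched peaks (log2 fold and −log10 p of at least 3) were merged over the whole series on at least 1 shared base per strand, and a region's value in a library was its highest enriched log2 fold there, which favours regions with several peaks. Whole read numbers were worked out from each fold and p within a relative tolerance of 0.003: a fold is the log2 of a ratio in lowest terms, shifted by 1 constant for each library, and its p matched Fisher's exact test where a read number was below 5 and otherwise the chi-square test with continuity correction. Of 2000 simulated peaks 1648 were settled correctly and 0 wrongly; the simulation used the same tests and cannot show that the authors made their p in this way. Adjacent peaks can share reads, so reads were not summed. Libraries were compared over peaks paired with at least 80% overlap, at least 40 reads together, and a log2 fold and −log10 p of at least 1. Python 3.11.15, pandas 2.3.3, numpy 2.4.6 and scipy 1.17.1 were used.

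The named regions are the LMF1 run and its regions, the PAM16 region, each run of at least 4 regions, the 3 regions most like PAM16, and peaks at the bounds. Also named are the 10 regions with the highest mean over the 4 libraries taken singly, among those enriched in all 4. Members, thresholds and lists were chosen with earlier results of these data known. Gene neighbours come from RefSeq, GRCh38.p14, with no coordinates used. Alternatives covered thresholds, overlap, gaps, the window, the region value and each library left out.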

Additional observations from a re-analysis of the deposited data

Results flagged for a closer look

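Of 39 quantities with 1 value in each of the 4 libraries, 3 had 1 library far from the others, measured as its gap to the nearest library over the whole range; chance would give about 1.95. The region chr16:4404949-4405187 on the minus strand had a log2 fold of 5.61 in library 3, with the nearest library at 4.94 (gap over range 0.852). In the LMF1 run the median input reads per peak, taken as the smallest that the fold and p allow, was 9 in library 1, with the nearest library at 1.5 (0.938). In the PAM16 region this median was 37 in library 1, with the nearest library at 2.5 (0.972). What sets library 1 apart was not tested. The adjoining region chr16:4404798-4404948 had log2 folds of 4.73, 4.36 and 5.90 in libraries 2 to 4, and in library 1 a listed peak of 2.67.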

How the results depend on the processing

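Of 91 recomputed values for 8 results, 79 were counted as kept, 10 moved and 2 turned. A count was kept within a set factor, and a share or mean when it moved by less than its main SD. For the strand and width differences only the sign counted. The width difference without both loci, −3.17 bases against −10.1, is thus among the 79 although it shrank. The difference in minus-strand share turned from 11.4 to −4.76 points in a 2 Mb window and to −5.72 points without the LMF1 run and the PAM16 cluster, an alternative chosen after seeing the data. The 2 Mb window held 53.8 enriched peaks per sample and 27 reproducible regions, by its smaller span. Asking for all 4 libraries left 27 reproducible regions, 6 of them in the LMF1 run. Counting peaks within 100 bases once left 44.2 enriched peaks per sample and a share of 10.5%, and put library 1 below its background. With a log2 threshold of 4 the LMF1 mean was 5.54.

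Leaving out each library in turn, and asking for all 3 that remain, gave 81.8 to 102 enriched peaks per sample, a share of 17.0 to 20.4% and 30 to 34 reproducible regions. The LMF1 run kept 6 to 8 regions with a mean of 4.72 to 5.70, lowest without library 2 and highest without library 1. The PAM16 region had a mean of 7.32 to 9.35, the strand difference was 10.2 to 14 points and the width difference −11.6 to −9.12 bases. Where no construction is named, the cause was not tested. No paired analysis was possible because the numbered inputs come with no peak values separate from the folds. Folds at 1 to 4 input reads are limited by depth.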
